A study of Mus musculus with 10 samples.

Results

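The simple keratins Krt7, Krt8, Krt18 and Krt19 and 6 transcription factors of the trophectoderm (Cdx2, Tfap2c, Tfap2a, Gata3, Eomes and Elf5) were taken by symbol from a table of ribosome footprint counts. Of these 10 genes, 5 had a row and were analysed among 11011 genes in all, namely the 4 keratins and Tfap2c. Cdx2, Tfap2a, Gata3, Eomes and Elf5 are not analysed here. All 5 genes passed the filter on low counts, as did 10978 genes of the table. The footprints came from mouse embryonic stem cells of the E14 line, a line of 129/Ola background taken from a blastocyst and grown on gelatine in serum with LIF. The 5 groups of 2 libraries each were WT cells (wild type) and cells labelled as Dgcr8 knockout, Drosha knockout, Dicer knockout, and Ago1 and Ago2 double knockout (Ago knockout). The labels name no clone, culture or passage for either library of a group, and the spread on which the tests rest may therefore be technical.

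Keratins are filament proteins that assemble only as pairs of a type II and a type I chain. Krt8 and Krt7 are type II chains, and Krt18 and Krt19 are type I chains. Together they form the filaments of simple, single-layered epithelia, and they are the first intermediate filaments that an embryo makes, in the trophectoderm, the outer epithelium of the blastocyst that founds the placenta. Simple keratins are also made in the primitive endoderm and its descendants. Tfap2c (AP-2 gamma) is a transcription factor of trophectoderm and of germ cells, and binds the AP-2 motif. Dgcr8 and Drosha together release miRNA hairpins from primary transcripts in the nucleus, Dicer cuts the hairpins in the cytoplasm, and Ago proteins carry the finished miRNAs.

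In GRCm38 coordinates of GENCODE M21, Krt7 (ENSMUSG00000023039), Krt8 (ENSMUSG00000049382) and Krt18 (ENSMUSG00000023043) lie on chromosome 15. Krt7 spans 101411043 to 101430313 on the plus strand, Krt8 spans 101996698 to 102004482 on the minus strand, and Krt18 spans 102028180 to 102032027 on the plus strand. The starts of Krt8 and Krt18 thus face away from each other, 23698 bases apart. Krt19 (ENSMUSG00000020911) lies on chromosome 11 from 100140810 to 100148665 on the minus strand, and Tfap2c (ENSMUSG00000028640) on chromosome 2 from 172549593 to 172558622 on the plus strand. Krt7 overlaps the antisense gene Gm671, and Krt8 overlaps the long non-coding gene Gm36026 on the other strand. Because the strand setting of the count is not given in the sources used here, reads of these partners cannot be told apart from those of Krt7 and Krt8. Krt8 also has an annotated processed pseudogene, Krt8-ps, so its count is uncertain to the extent that reads were shared with that copy.

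Promoter sequences are shown because Krt7, Krt8 and Krt18 stood above WT in every Dicer and Drosha library, and because Tfap2c is itself a factor of the AP-2 motif. The RefSeq table (GRCm38.p6) held a promoter for 3 of the 5 genes, from 250 bases before to 50 bases after the annotated start. Each is printed on its own strand, at chr15:101412153-101412452 (plus) for Krt7, chr15:102004293-102004592 (minus) for Krt8 and chr15:102027966-102028265 (plus) for Krt18. Capitals mark matches on either strand to the AP-2 motif GCCNNNGGC, the GATA motif AGATAA and the TATA motif TATAAA.
Krt7: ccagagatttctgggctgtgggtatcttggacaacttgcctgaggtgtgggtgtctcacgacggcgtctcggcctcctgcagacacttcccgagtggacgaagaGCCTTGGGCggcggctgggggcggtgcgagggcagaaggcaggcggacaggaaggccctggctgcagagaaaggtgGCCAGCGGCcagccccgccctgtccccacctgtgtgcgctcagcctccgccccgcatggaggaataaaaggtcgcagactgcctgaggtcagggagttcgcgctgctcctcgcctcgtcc
Krt8: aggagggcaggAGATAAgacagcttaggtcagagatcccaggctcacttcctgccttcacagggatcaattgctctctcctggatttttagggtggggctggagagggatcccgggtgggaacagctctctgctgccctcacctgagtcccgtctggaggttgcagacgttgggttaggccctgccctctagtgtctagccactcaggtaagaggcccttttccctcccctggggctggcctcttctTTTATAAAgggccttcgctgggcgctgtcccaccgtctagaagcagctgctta
Krt18: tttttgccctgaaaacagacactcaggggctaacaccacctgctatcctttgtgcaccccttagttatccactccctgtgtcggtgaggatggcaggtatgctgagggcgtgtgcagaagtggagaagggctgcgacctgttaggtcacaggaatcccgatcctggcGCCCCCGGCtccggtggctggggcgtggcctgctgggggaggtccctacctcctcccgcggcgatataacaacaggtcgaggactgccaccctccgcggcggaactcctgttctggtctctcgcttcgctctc

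Krt7 held 2 AP-2 matches, starting 146 and 70 bases before its RefSeq start, and Krt18 held 1, starting 83 bases before its own. These RefSeq starts differ from the GENCODE starts given above, and the whole Krt7 window lies inside the GENCODE span of Krt7. Krt8 held no AP-2 match, but 1 GATA match near the far end of the window and a pair of overlapping TATA matches on opposite strands across the annotated start. Of 11184 RefSeq promoters of tested genes, 25.5% held an AP-2 match, 5.88% a GATA match and 6.60% a TATA match, so an AP-2 match is common. These matches describe letters, and binding was not measured.

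Since all 4 knockouts act on the miRNA pathway, the annotated 3′ UTRs were searched for perfect matches to bases 2 to 8, the seed, of 5 miRNA families of stem cells and epithelia. Each family is shown by the RefSeq mature sequence of 1 member, with the seed in capitals.
miR-294-3p: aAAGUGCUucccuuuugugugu
miR-17-5p: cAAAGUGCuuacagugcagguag
let-7a-5p: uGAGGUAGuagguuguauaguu
miR-200b-3p: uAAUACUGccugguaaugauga
miR-141-3p: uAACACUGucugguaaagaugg

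The keratin UTRs are short except for that of Krt7. They measured 242 bases in Krt8, 66 in Krt18, 103 in Krt19 and 2648 in Krt7, and that of Tfap2c measured 1243 bases. None of the 5 genes held a match to the seeds of miR-294, miR-17, let-7 or miR-200b, which 15.7%, 13.4%, 9.45% and 14.3% of the UTRs of 10787 tested genes held. The seed of miR-141 had 1 match in Krt7, at base 1948 of the UTR, and 1 in Tfap2c, at base 403, and 18.9% of all UTRs held one. Both matches are shown with their flanks and with the match in capitals.
Krt7: gcaagagaccaCAGTGTTtagctgtgtaca
Tfap2c: tatttctttttCAGTGTTaagataatagct
The absence of a match says only that these letters are not in the annotated UTR.

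Total counts ran from 1754710 to 80850950 per library, a ratio of 46.1, and the Drosha libraries and the second Dicer library were the shallowest. The library numbers in the labels fell into 3 runs, with 28 to 31 for the first libraries of WT, Dgcr8, Drosha and Dicer, 37 to 41 for their second libraries and the first Ago library, and 52 for the second Ago library. What a run stands for is not given in the sources used here. Levels are given as CPM, a gene's count relative to its library's total after scaling by TMM, a method that balances libraries on the bulk of their genes. Replicates' log2 CPM correlated across genes, which are not independent, with r between 0.925 and 0.982. Of the targeted genes, Drosha fell in the Drosha knockout (log2 -2.59), Dicer1 in the Dicer knockout (log2 -2.72) and Ago2 in the Ago knockout (log2 -2.94), while Ago1 in the latter was at log2 0.37 against WT (adjusted p = 0.67). Dgcr8 itself was higher, not lower, in the libraries labelled Dgcr8 knockout (log2 2.14, adjusted p = 0.015, edgeR). By the same test it was also higher in Drosha (log2 2.48, adjusted p = 0.0028), Dicer (1.09, 0.021) and Ago (1.07, 0.047). Its rise is thus not particular to the libraries labelled Dgcr8 knockout. Their label is still not borne out by a fall of Dgcr8, and every direction given for them carries that doubt. The summed level of 18 pluripotency genes, all with a row, was between 6700 and 8520 CPM in every library, and none of the 18 was at 0 in any library. Single members moved: Klf4 fell and Klf2 rose in Dicer (log2 -2.91 and 2.36, adjusted p = 0.0018 and 0.0021), in Drosha (-1.52 and 2.20, 0.035 and 0.011) and in Ago (-1.62 and 2.11, 0.028 and 0.0098), and Lin28a fell in Dicer (log2 -3.33, adjusted p = 0.0099). Among all genes 11.1% were called in Dicer, 3.44% in Drosha and 2.88% in Ago. Footprints combine mRNA amount with ribosome load, and in a bulk culture more cells with a gene cannot be told apart from more of it per cell. Where both libraries of a group are said to lie above or below those of another, this describes the values only. An exact permutation test of 2 against 2 libraries cannot go below a p of 0.333, and the share of all genes that separate so was not counted.

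Krt8, the type II chain common to simple epithelia, rose most in the Dicer knockout. It stood at 26.8 and 36.5 CPM in the WT libraries and at 332 and 207 CPM in the Dicer libraries, a rise of 8.51-fold (log2 3.09, SE 0.35, adjusted p = 0.0013, edgeR quasi-likelihood test). By p-value Krt8 ranked 13 among all genes in that comparison. The Drosha libraries held 88.6 and 71.6 CPM, both above both WT libraries, but the rise (log2 1.33, SE 0.33) missed the threshold at an adjusted p of 0.053. Levels of Krt8 were 36.3 and 24.5 CPM in the libraries labelled Dgcr8 knockout and 29.6 and 24.8 CPM in the Ago libraries, both overlapping WT. Their log2 changes were -0.05, with a 95% interval from -0.76 to 0.66, and -0.22, from -0.93 to 0.49.

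Krt18, its usual type I partner, rose in both the Dicer and the Drosha knockout. It stood at 50.3 and 49.8 CPM in WT, 50.4 and 51.4 CPM in those labelled Dgcr8 knockout, 128 and 119 CPM in Drosha, 247 and 165 CPM in Dicer and 48.1 and 38.9 CPM in Ago. The rise was 4.13-fold in Dicer (log2 2.04, SE 0.29, adjusted p = 0.0026) and 2.47-fold in Drosha (log2 1.31, SE 0.28, adjusted p = 0.031), and both Drosha libraries lay above all WT, Dgcr8 and Ago libraries. The libraries labelled Dgcr8 knockout differed from WT by log2 0.02, with a 95% interval from -0.58 to 0.63, and those of Ago by log2 -0.20, from -0.80 to 0.40.

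Krt7, a type II chain of ducts and of trophoblast, was low in WT, at 2.86 and 3.32 CPM from 31 and 80 counts. It reached 33.8 and 19.3 CPM in Dicer and 14.2 and 15.7 CPM in Drosha, the latter from only 27 and 36 counts. The rise was 8.65-fold in Dicer (log2 3.11, SE 0.53, adjusted p = 0.0048) and 4.83-fold in Drosha (log2 2.27, SE 0.53, adjusted p = 0.042). Krt7 was also at 4.84 and 8.17 CPM in the libraries labelled Dgcr8 knockout and at 3.61 and 8.03 CPM in Ago, all 4 above both WT libraries. Neither of those differences passed (log2 1.03, adjusted p = 0.54, and log2 0.92, adjusted p = 0.34).

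Krt19, the smallest keratin and a type I chain without a tail domain, was called in the Dicer knockout alone. It stood at 24.2 and 46.3 CPM in WT, the widest spread of the keratins there, and at 186 and 142 CPM in Dicer (4.64-fold, log2 2.22, SE 0.40, adjusted p = 0.0058). The Drosha libraries were split, with 65.9 CPM above both WT libraries and 31.9 CPM between them (log2 0.46, adjusted p = 0.57). Krt19 was at 21.6 and 21.5 CPM in the libraries labelled Dgcr8 knockout, below both WT libraries (log2 -0.72, adjusted p = 0.59), and at 27 and 26.5 CPM in Ago, between them (log2 -0.40, adjusted p = 0.61).

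Tfap2c, the 1 transcription factor of the set with a row, was called in no comparison. It stood at 45.3 and 46.5 CPM in WT, 43.5 and 122 CPM in those labelled Dgcr8 knockout, 80.2 and 137 CPM in Drosha, 59.1 and 83.8 CPM in Dicer and 75.8 and 106 CPM in Ago. Every Drosha, Dicer and Ago library was above both WT libraries, while the libraries labelled Dgcr8 knockout lay on either side. No comparison with WT passed, with log2 1.24 in Drosha (adjusted p = 0.16), 0.99 in Ago (0.24), 0.84 in Dgcr8 (0.58) and 0.63 in Dicer (0.39). The order of its group means was Drosha, Ago, Dgcr8, Dicer and WT, and no step in that order passed a test. Dicer held the lowest Tfap2c mean of the 4 knockouts. Its place below Dgcr8 rests on the second Dgcr8 library at 122 CPM, as the first, at 43.5 CPM, was below both Dicer libraries.

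**Figure D1:**
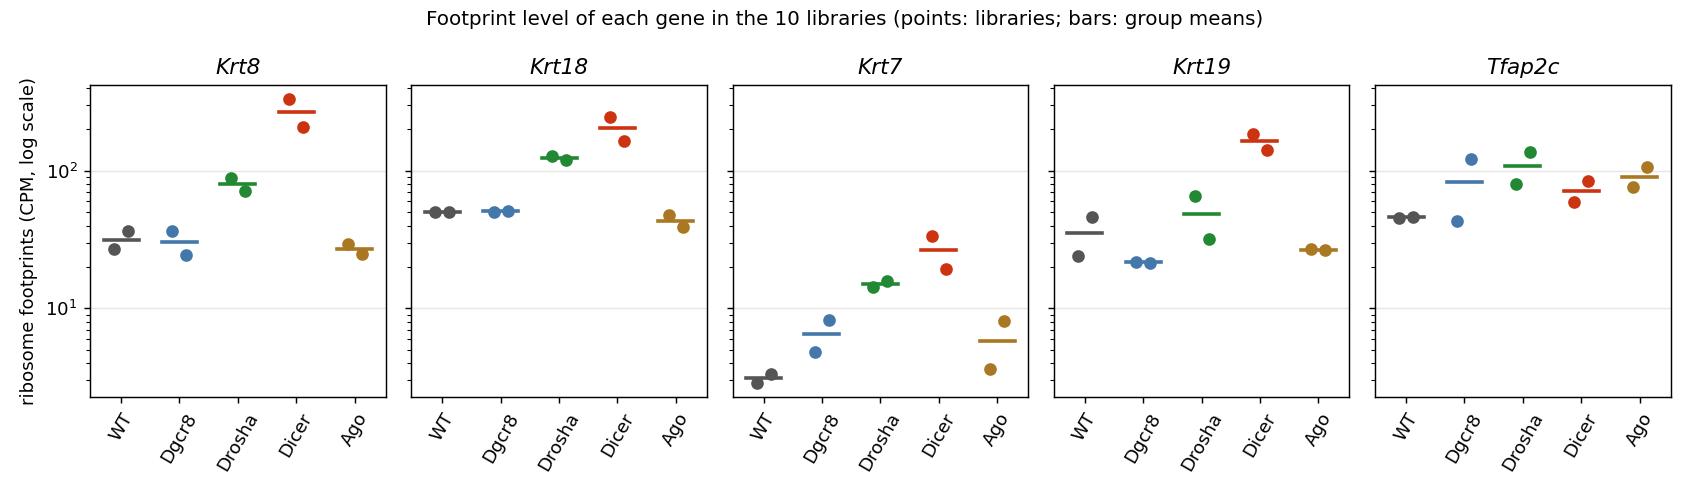
Footprint level in CPM, on a log axis, of each gene in each library, with replicate 1 left of replicate 2 and a bar at the group mean. All 4 keratins are highest in Dicer, from 142 CPM upward for Krt8, Krt18 and Krt19 and from 19.3 CPM for Krt7, while the mean of Tfap2c is highest in Drosha.

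Over the 5 genes, 4 were called in the Dicer knockout, all higher, against 11.1% of all genes called either way and 7.35% called higher. In the Drosha knockout 2 of 5 were called, both higher, against 3.44% of all genes called and 2.48% called higher. None was called in the libraries labelled Dgcr8 knockout, where 0.0729% of all genes were, or in the Ago knockout, where 2.88% were. DESeq2 and limma-voom also called none in either. By edgeR's p before adjustment, with the same threshold, Tfap2c passed in Ago, where 2163 of 10978 genes did, and none of the 5 in Dgcr8, where 1077 genes did, so neither count stands out. The median log2 change of the 5 genes was 2.22 in Dicer, 1.31 in Drosha, 0.02 in Dgcr8 and -0.20 in Ago, beside medians of all tested genes of 0, -0.01, 0.02 and 0.04. All 4 comparisons share the same WT libraries.

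The calls were of unequal firmness. Krt8 and Krt18 kept theirs in the Dicer knockout under each of 19 alternative settings, with adjusted p between 4.2e-16 and 0.024 and between 4e-10 and 0.046. Krt7 lost its call there without the first WT library (adjusted p = 0.053), the second WT library (0.065) or the first Dicer library (0.067), and Krt19 without the first WT library (0.069) or the first Dicer library (0.054). In the Drosha knockout, Krt7 and Krt18 lost theirs with limma-voom (0.13 and 0.052), without either WT library (0.23 and 0.28 for Krt7, 0.20 and 0.27 for Krt18) and without either Drosha library (0.091 and 0.13 for Krt7, 0.084 and 0.076 for Krt18). Krt7 also lost its Drosha call without the first (0.069) or second (0.058) Dicer library. Krt8, just past the threshold in Drosha, gained a call in 9 of 19 settings, among them DESeq2 (0.0046). Within each of the runs of library numbers that hold both groups, every keratin was higher in Dicer than in WT. With the run as a term in the fit the 4 Dicer calls stood (adjusted p between 0.00061 and 0.0056), and Krt8 was also called in Drosha (0.027).

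**Figure D2:**
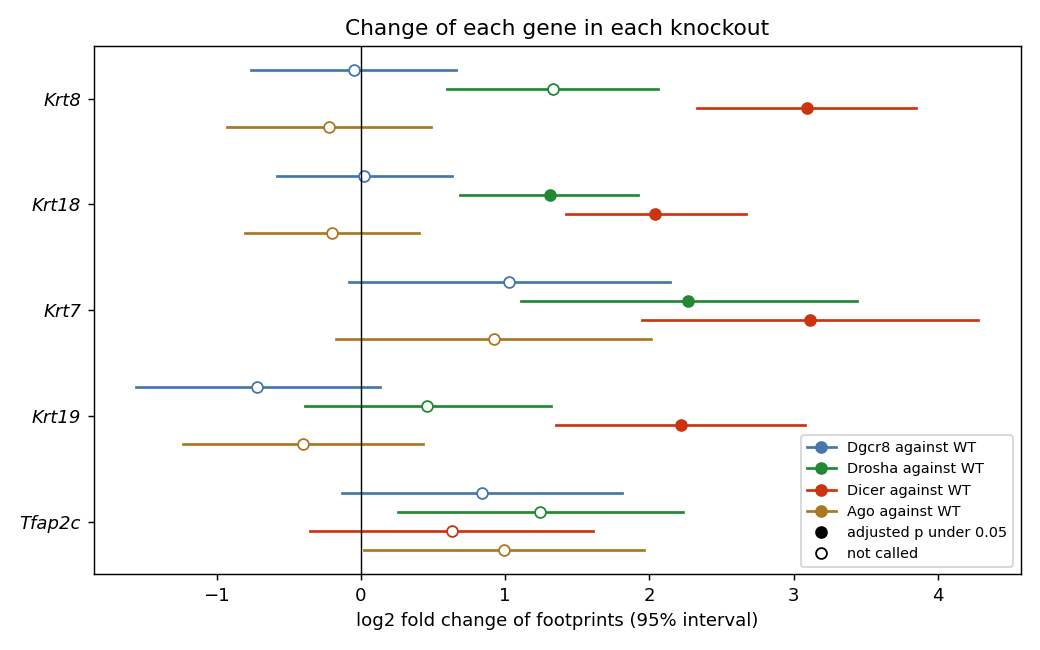
Log2 fold change of each gene in each knockout against WT with its 95% interval, filled where the adjusted p is under 0.05. The Dicer intervals of the 4 keratins lie wholly above 1, those of Krt8, Krt18 and Krt19 in Dgcr8 and Ago include 0, and no Tfap2c point is filled.

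The knockouts were then compared with each other, over 6 pairs. Against the libraries labelled Dgcr8 knockout, the Dicer knockout was higher for Krt8 (8.82-fold, adjusted p = 0.0037), Krt19 (7.62-fold, 0.0061), Krt18 (4.06-fold, 0.0064) and Krt7 (4.24-fold, 0.045). In that pair 4.07% of all genes were called and 3.19% were higher in Dicer. Against the Ago knockout, Dicer was higher for Krt8 (9.94-fold, adjusted p = 0.0022), Krt18 (4.75-fold, 0.0099) and Krt19 (6.14-fold, 0.022), while Krt7 missed (4.57-fold, 0.085) and was called by DESeq2 (0.0024) and limma-voom (0.043). There 0.547% of all genes were called and 0.328% were higher in Dicer. Thus 7 calls were made among the 5 genes over the 6 pairs, each of them with Dicer as the higher group.

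Of these 7, the Krt8 difference between Dicer and Dgcr8 was called in all 17 alternatives. The first Dicer library carried weight in the others: without it the calls of Krt18 (adjusted p = 0.082) and Krt19 (0.065) against Dgcr8 and of Krt18 (0.17) and Krt19 (0.24) against Ago were lost. Without the second Ago library the Ago calls of Krt8 (0.071), Krt18 (0.078) and Krt19 (0.16) were lost. With the run of library numbers as a term, which leaves the Ago level to its first library, Krt19 against Ago was lost too (0.098). The Krt7 call against Dgcr8 was lost without any 1 of the WT, Dgcr8, Drosha or Dicer libraries, at adjusted p between 0.055 and 0.49.

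Dicer and Drosha, the groups with higher keratins, could not be separated by the test for any of the 5 genes. Every Dicer library was above both Drosha libraries for all 4 keratins, but the share of all genes that separate so was not counted. Krt8 was 3.37-fold lower in Drosha (log2 -1.75, SE 0.34, adjusted p = 0.15), Krt19 also 3.37-fold lower (log2 -1.75, SE 0.40, adjusted p = 0.28), Krt7 1.79-fold (adjusted p = 0.77) and Krt18 1.67-fold (adjusted p = 0.55). Only 1 gene of the whole table, 0.00911%, passed in this pair, and the unadjusted p of Krt8 was 0.00024. DESeq2 called Krt8 (adjusted p = 0.00044) and Krt19 (0.0096) in it.

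Drosha was above both the libraries labelled Dgcr8 knockout and those of Ago for all 4 keratins in every library. How many of all genes separate in this way was not counted. None of these differences passed, with the smallest adjusted p for Krt18, at 0.078 against Dgcr8 (2.43-fold) and 0.082 against Ago (2.84-fold). DESeq2 called Krt18 (0.0021) and Krt8 (0.0081) against Dgcr8 and both against Ago (0.00014 and 0.0024), and with the run of library numbers as a term Krt18 (0.032) and Krt8 (0.049) were called against Dgcr8. The shares of all genes called were 0.501% between Dgcr8 and Drosha and 0.0455% between Drosha and Ago. Dgcr8 and Ago showed no call for any of the 5 genes, at adjusted p between 0.80 and 0.96, and 0.483% of all genes were called between them. The log2 differences there lay between -0.31 and 0.23, but Tfap2c moved to -1.07 without the second Dgcr8 library and Krt7 to 0.80 without the second Ago library.

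Levels of different genes can be set side by side only per length, so CPM was divided by the kilobases of coding sequence (1470 bases in Krt8, 1269 in Krt18, 1371 in Krt7, 1209 in Krt19 and 1539 in Tfap2c). In WT the order on this scale was Krt18 (39.4 ± 0.311, mean ± SD, n = 2 libraries), Tfap2c (29.8 ± 0.548), Krt19 (29.2 ± 12.9), Krt8 (21.6 ± 4.67) and Krt7 (2.25 ± 0.238). Krt19 overlapped Tfap2c, and its lower library also overlapped Krt8, whereas Krt18 was above the other 4 genes in both libraries, narrowly so against the higher Krt19 library at 38.3. In Dicer the order was Krt8 (183 ± 59.7), Krt18 (162 ± 45.8), Krt19 (136 ± 25.4), Tfap2c (46.5 ± 11.4) and Krt7 (19.4 ± 7.48). There Krt8, Krt18 and Krt19 overlapped one another and were above Tfap2c and Krt7 in both libraries. Among 10975 tested genes with a coding length, Krt8 stood at the percentiles 46.9 and 55.0 per kilobase in the WT libraries and 94.1 and 90.3 in the Dicer libraries.

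The balance of the Krt8 and Krt18 pair in the Dicer knockout lay outside the range of the other libraries. Per codon, Krt8 footprints were 0.460 and 0.634 of Krt18 footprints in WT, 0.621 and 0.412 in those labelled Dgcr8 knockout, 0.597 and 0.519 in Drosha and 0.531 and 0.551 in Ago. In Dicer the ratio was 1.16 and 1.09. The 8 libraries outside Dicer thus ran from 0.412 to 0.634 with no overlap, and the Drosha libraries, whose Krt8 and Krt18 levels were both above WT, stayed within that range. The ratio was not tested and is given as a description. Set against WT alone, an exact permutation test of 2 against 2 libraries could not go below a p of 0.333.

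Sums over all 4 simple keratins hold the same Krt8 and Krt18 values and are no separate observation. The type II sum over the type I sum, per kilobase, was 0.340 and 0.352 in WT and 0.718 and 0.627 in Dicer, with the other 6 libraries between 0.377 and 0.500. The type I sum leaves out the further type I chains Krt17, Krt13 and Krt42. Krt17 went from 9.86 and 8.17 CPM in WT to 242 and 221 CPM in Dicer, so the ratio does not describe the balance of all keratin chains. Summed over the 4 chains, the level per kilobase was 80.1 and 105 CPM in WT, 226 and 181 in Drosha and 599 and 403 in Dicer. Krt8 made up 22.8% and 23.7% of that sum in WT and 37.7% and 35.0% in Dicer, while Krt18 went from 49.5% and 37.4% to 32.5% and 32.3%. The shares of Krt7 (4.12% and 3.50%) and Krt19 (25.7% and 29.2%) in Dicer lay within the ranges of the other 8 libraries, 2.31% to 7.77% and 14.6% to 36.5%. In every library the type I chains gave more footprints per kilobase than the type II chains among these 4.

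**Figure D3:**
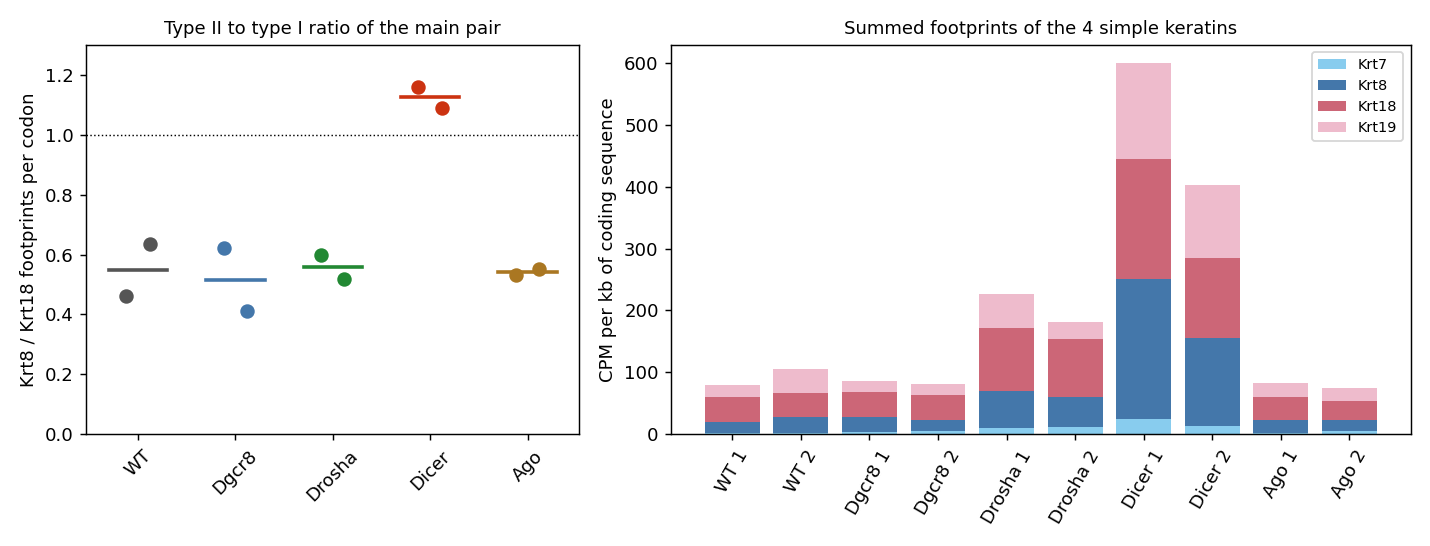
Left, the ratio of Krt8 to Krt18 footprints per codon in each library, with a bar at the group mean and a dotted line at equality; the Dicer libraries stand at 1.16 and 1.09 and the others between 0.412 and 0.634. Right, CPM per kilobase of coding sequence of the 4 simple keratins, stacked by gene, in each library.

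Other keratins and the proteins that hold keratin filaments were read next. Of 35 further keratin genes listed, 3 had a row, and all are type I chains. Krt17, a keratin of basal and stressed epithelia, went from 9.86 and 8.17 CPM in WT to 242 and 221 CPM in Dicer (log2 4.69, SE 0.41, adjusted p = 4e-04), 55.4 and 53.3 CPM in Drosha (log2 2.59, adjusted p = 0.011) and 49.9 and 57.5 CPM in Ago (log2 2.58, adjusted p = 0.0096). Krt13, a keratin of stratified mucosa, rose in the same 3 knockouts from under 0.5 CPM (log2 4.10, 3.59 and 3.24, adjusted p = 0.0087, 0.036 and 0.044). Its levels stayed low, at 7.91 and 6.62 CPM in Dicer, 3.17 and 6.99 in Drosha and 2.05 and 5.9 in Ago. A single count equals 0.528 and 0.437 CPM in the Drosha libraries, so few counts carry the rise there. Krt42 rose in Dicer (log2 2.37, adjusted p = 0.025). Its changes in Drosha (log2 2.24, adjusted p = 0.061), Ago (1.94, 0.092) and Dgcr8 (1.46, 0.43) were also upward but missed the threshold. Of all genes, 7.35% were called higher in Dicer, 2.48% in Drosha and 217 of 10978 in Ago. In the Ago knockout, then, Krt17 and Krt13 were called while Krt8, Krt18 and Krt19 were below the WT mean in both libraries. Krt17 was itself higher in Dicer than in Ago (log2 2.11, SE 0.36, adjusted p = 0.035).

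Among 16 analysed genes for desmosomes, plakins and hemidesmosomes, which tie keratin filaments to junctions, 4 were higher in Dicer, 1 in Drosha, 1 in Ago and none in Dgcr8, and none was lower. Over all genes 7.35% were higher in Dicer, 2.48% in Drosha and 217 of 10978 in Ago, so the single anchor gene in Drosha and in Ago is near the background. The median log2 change of the 16 was 0.30 in Dicer, 0.26 in Drosha, 0.20 in Ago and -0.14 in Dgcr8. The desmosome linker Dsp went from 52.0 and 56.1 CPM in WT to 528 and 299 CPM in Dicer (log2 2.94, SE 0.51, adjusted p = 0.0049). The plakins Ppl (log2 2.74, adjusted p = 0.015) and Evpl (log2 1.74, adjusted p = 0.019) also rose in Dicer. Itgb4, the integrin chain of hemidesmosomes, rose in Dicer (log2 2.54, adjusted p = 0.0049), Drosha (log2 2.23, adjusted p = 0.022) and Ago (log2 1.94, adjusted p = 0.036). Of 11 other intermediate filament genes the neural stem cell filament Nes rose in Dicer (log2 1.68, adjusted p = 0.016) and the muscle filament Des fell (log2 -2.44, adjusted p = 0.011), with no other call in any knockout and a median of 0.02 in Dicer. Called either way in Dicer were 11.1% of all genes.

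Genes that act before and after trophectoderm fate were mixed. Of 26 analysed upstream genes (Hippo pathway, Tead factors, partners of Cdx2), 2 rose and 2 fell in Dicer, 1 rose and 1 fell in each of Drosha and Ago, and none passed in Dgcr8. Over all genes 11.1% were called in Dicer, 3.44% in Drosha, 2.88% in Ago and 0.0729% in Dgcr8, so the count in Dicer is close to the background. Amot, which holds the coactivator Yap1 at junctions, fell from 115 and 112 CPM in WT to 11.5 and 13.2 CPM in Dicer (log2 -3.21, adjusted p = 0.0018), and also in Drosha (log2 -3.82, adjusted p = 0.0035) and Ago (log2 -4.48, adjusted p = 0.0013). Its relative Amotl1 rose in Dicer (log2 1.78, adjusted p = 0.0049) and Drosha (log2 1.91, adjusted p = 0.013). Nf2, an upstream Hippo regulator, rose in Dicer (log2 2.06, adjusted p = 0.014), where the transcription factor Zfp281 fell (log2 -1.23, adjusted p = 0.019). Without a call, Nf2 was at log2 1.72 in Drosha, 1.73 in Ago and 1.19 in Dgcr8, and Zfp281 at -0.93, -1.06 and -0.38. The DNA demethylase Tet1 rose in Ago (log2 1.37, adjusted p = 0.032).

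Of 24 analysed genes of trophoblast differentiation, 4 rose and 3 fell in Dicer, 1 rose and 2 fell in each of Drosha and Ago, and 1 rose in Dgcr8, with medians of 0.30, 0.18, 0.06 and -0.09. The shares of all genes called were 11.1%, 3.44%, 2.88% and 0.0729% in the same order. Lgals3, a lectin of trophoblast and of macrophages, was the rise shared by all 4 knockouts (log2 3.62 in Dicer, adjusted p = 0.0013). The homeobox gene Rhox9 rose in Dicer (log2 4.79, adjusted p = 0.016), as did its close relative Rhox6 (log2 4.42, adjusted p = 0.033), and reads may be shared between the 2. Rhox9 was also at log2 3.74 in Drosha, 3.50 in Ago and 3.47 in Dgcr8, none of them called. Bmp4, a signal that supports trophoblast fate, fell in Dicer (log2 -2.12, adjusted p = 0.0071), Drosha (log2 -2.24, adjusted p = 0.018) and Ago (log2 -1.64, adjusted p = 0.042). The water channel Aqp3 rose in Dicer (log2 2.12, adjusted p = 0.025), where the glucose transporter Slc2a1 (log2 -1.53, adjusted p = 0.013) and the fatty acid carrier Fabp3 (log2 -1.89, adjusted p = 0.021) fell. Tspan8 fell in Drosha (adjusted p = 0.049) and the water channel Aqp8 in Ago (adjusted p = 0.036), each from a low WT level.

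Markers of other cell types, among them the primitive endoderm, which makes simple keratins, were set beside these results. Of 20 primitive endoderm markers 13 had a row, and 11 fell in Dicer, 10 in Ago, 6 in Drosha and none in Dgcr8, with no rise. Of all 10978 genes, 413 were lower in Dicer, 99 in Ago, 106 in Drosha and 2 in Dgcr8. The summed level of the 13 was 13200 to 14400 CPM in WT, 2750 to 3430 in Drosha, 2220 to 3040 in Dicer and 2120 to 3630 in Ago. In the libraries labelled Dgcr8 knockout it was 8650 in the first and 2860 in the second. These 2 libraries also differed in Krt42 (13.6 and 64.7 CPM) and Tfap2c (43.5 and 122 CPM), but not in Krt18 (50.4 and 51.4 CPM). The absence of calls in Dgcr8 therefore does not show that both of its libraries were like WT. Gata6, the factor that starts this lineage, was at 0 counts in both Dicer libraries, the first Drosha library and the first Ago library, and Sox17 was at 0 in the second Dicer library and the first Ago library. Beside these endoderm sums, the 4 simple keratins together reached 599 and 403 CPM per kilobase in the Dicer libraries. The Ago libraries stood at 83.0 and 75.4 on that scale, against 80.1 and 105 for WT. Of the 4, only Krt7 had a higher level in Ago than in WT (1.89-fold, adjusted p = 0.34, edgeR). The part of endoderm cells in the keratin level of WT or of any knockout was not tested.

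Of 17 markers of surface ectoderm and neural crest 6 had a row. The epithelial factors Grhl2 (log2 2.95, adjusted p = 0.0029) and Grhl1 (log2 2.44, adjusted p = 0.016) rose in Dicer, and Grhl2 in Drosha (log2 2.12, adjusted p = 0.029). The summed level of the 6 was 2420 to 2700 CPM in WT and 3750 to 6130 in Dicer, most of it from Epcam and Cdh1, and ran from 1930 to 4090 CPM in Drosha, 2090 to 2240 in Dgcr8 and 2270 to 3620 in Ago. Of 9 germ cell genes, all with a row, Prdm1 (log2 2.42, adjusted p = 0.018) and Nanos3 (adjusted p = 0.045, from 0 and 0.166 CPM in WT) rose and Kit fell (log2 -1.25, adjusted p = 0.020) in Dicer, with none called in the other knockouts. Nanos3, at 0.791 and 5.52 CPM in Dicer (log2 4.58), had log2 changes of 4.57 to 4.73 in the other knockouts. Prdm1 was at log2 2.01 in Drosha and Ago and 1.62 in Dgcr8, so neither rise was particular to Dicer. Kit was at log2 -0.88 in Drosha, -0.24 in Dgcr8 and 0.65 in Ago. Of 12 primitive streak markers Nodal and Kdr had a row, and Nodal rose in Ago (log2 1.97, adjusted p = 0.038). Of 12 fibroblast markers 5 had a row, and Col6a2, Mmp2 and Fbln2 fell in Dicer. Beside these calls, 11.1% of all genes were called in Dicer (7.35% higher), 3.44% in Drosha (2.48% higher) and 2.88% in Ago. The part of any of these cell types in the keratin result was not tested.

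**Figure D4:**
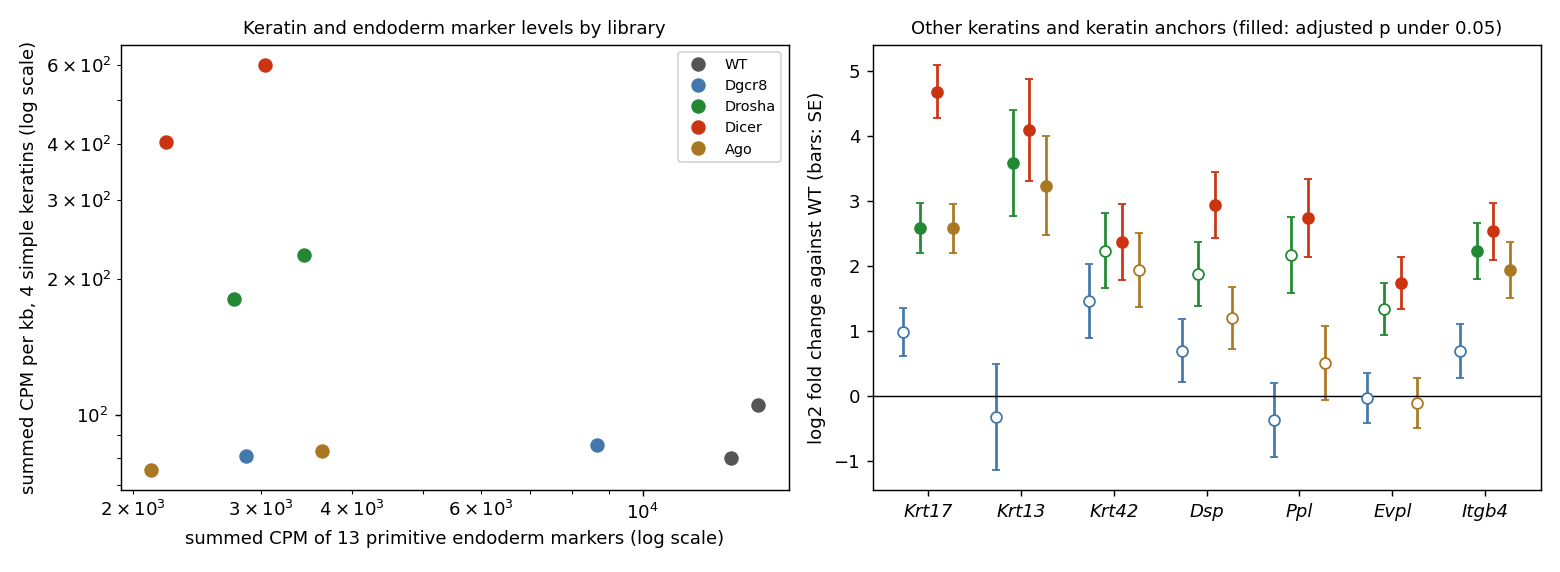
Left, the summed level of the 4 simple keratins per kilobase against the summed level of 13 primitive endoderm markers in each library, both on log axes; WT is low in keratins and high in endoderm markers, Dicer the reverse, and Ago is low in both. Right, log2 fold change with SE against WT of other keratins and keratin anchors, in the same colours; all 7 are called in Dicer.

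Genes whose level moved most like the keratins over the 10 libraries were listed as a description, among 6793 genes with a mean of at least 20 CPM. The points share libraries and depth, and no test was made. Parva, a focal adhesion protein, was nearest to Krt18 (Pearson r 0.971) and among the 3 nearest to Krt8 (r 0.960), at 11.4 CPM in WT, 41.9 in Drosha, 82.5 in Dicer and 7.31 in Ago. Dennd1b, a regulator of membrane traffic, led for Krt8 (r 0.963) and was among the 3 nearest to Krt18 (r 0.952), and Nqo2 came second for Krt8 (r 0.961). The plakin Evpl came second for Krt18 (r 0.964). Krt7 was nearest to Pik3cb (r 0.954), Wrn (r 0.952) and Acot9 (r 0.939), and Krt19 to Vwa5a (r 0.950), Dtx3l (r 0.944) and Slk (r 0.936).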

How the data were processed

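Ribosome-protected fragments were prepared after a brief cycloheximide treatment and RNase I digestion, per the labels' protocols, with Drosophila spike-ins added. Trimmomatic and Bowtie2 and the builds mm10 (GRCm38) and dm6 (BDGP6) are named in the submitters' processing notes. The authors deposited raw counts per gene, 1 column per library. The counting tool, annotation and strand setting are not given in the sources used here. Columns were matched to samples by the library number in both. All 11011 identifiers matched GENCODE M21, and 16 date-like symbols were set back to gene names.

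Counts were fitted in R 4.3.3 with edgeR 4.0.16 (filterByExpr, TMM, quasi-likelihood, 1 mean per group, all 10 libraries), with Benjamini-Hochberg adjustment over 10978 genes at 0.05, 2-sided. The SE was taken as |log2 fold change| divided by √F. Alternatives used DESeq2 1.42.0, limma-voom (limma 3.58.1), other scalings, no filter, a replicate block, the 2 groups alone and each library left out. A fit without both libraries labelled Dgcr8 knockout and a fit with the run of library numbers as a term were chosen after seeing the data. The method was tested on simulated data. Coding lengths and 3′ UTRs came from the GENCODE transcript with the longest coding sequence, because no protein table was used. Genes named beyond the 5 were up to 4 per list with the smallest adjusted p against WT, and the 3 genes most correlated with each keratin (log2 of CPM plus 1). Members and lists were chosen with earlier results of these data known. Tet1, Aqp3, Aqp8, Fabp3, Rhox6, Tspan8, Cdh1 and Gata6 are named outside this rule or for a count of 5 or fewer, after their values were seen.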

Additional observations from a re-analysis of the deposited data

How the results depend on the processing

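In the comparison of Drosha with WT, limma-voom called 0 of the 5 genes where edgeR called 2, and leaving out single libraries gave between 0 and 3 (0 without either WT or either Drosha library, 1 without either Dicer library). The fit without both libraries labelled Dgcr8 knockout called 3 genes in Drosha, 4 in Dicer and 0 in Ago. Leaving out single libraries gave between 2 and 4 calls in Dicer (2 without the first WT or first Dicer library), 0 in every case in Dgcr8 and Ago, and between 2 and 7 calls between knockouts (2 without the first Dicer library, 4 without the second Ago library). DESeq2 made 14 calls between knockouts and the replicate block 11. The block called 3 genes in Drosha and 4 in Dicer. Deviations of same-numbered libraries correlated between 0.09 and 0.34 over the 10 pairs of groups, all of them positive. Only 1 pair, Dgcr8 and Drosha, was not above 0.1. The main fit did not pair the libraries by replicate number, but these correlations do not show that same-numbered libraries are independent. A part shared by such libraries was not tested. With the run of library numbers as a term, calls among all genes against WT rose from 378 to 951 in Drosha. In Dicer they rose from 1220 to 2168. The replicate numbers used here come from the sample titles. They follow the runs of library numbers except in Ago, whose first library belongs to the run of the second libraries of the other groups. The column names number the 2 Ago libraries 2 and 3, so by those names this Ago library is a second one. The replicate block used the title numbers and thus set it with the first libraries of the other groups. With the run as a term 0, 3, 4 and 0 genes were called in Dgcr8, Drosha, Dicer and Ago against WT, and 8 between knockouts. Among all genes, calls in Drosha went from 378 to between 111 and 972 under other tools and settings, in Dicer from 1220 to between 1045 and 3224, in Ago from 316 to between 317 and 942 and in Dgcr8 from 8 to between 0 and 160. Without single libraries they fell as low as 1, 139, 3 and 0.

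Signs turned only for log2 changes that were never called, and the cause was not tested. Without single libraries, Krt8 in Dgcr8 against WT ran from -0.37 to 0.19, Tfap2c there from -0.08 to 1.41, Krt19 in Drosha from -0.15 to 1.01, and in Ago Krt8 from -0.42 to 0.02 and Krt19 from -0.78 to 0.14. Between Dgcr8 and Ago, Krt7 ran from -0.35 through -0.28 to 0.80 (limma-voom gave -0.20), Krt8 reached -0.15, and Tfap2c ran from -1.07 to 0.42 and was 0.11 without the second Ago library. Tfap2c ran from -1.32 to 0.17 between Dgcr8 and Drosha (0.04 without the second Drosha library), from -0.71 to 0.78 between Dgcr8 and Dicer (-0.02 without the first Dicer library) and from -0.20 to 0.58 between Drosha and Ago. With the run as a term, Krt8 and Krt18 came to 0.01 and 0.02 in Ago against WT, Krt8, Krt18 and Tfap2c to -0.11, 0 and 0.34 between Dgcr8 and Ago, and Tfap2c to 0.25 between Dicer and Ago.

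The ratio of Krt8 to Krt18 per codon ranged without single libraries from 0.460 to 0.634 in WT, 0.412 to 0.621 in Dgcr8, 0.519 to 0.597 in Drosha, 1.09 to 1.16 in Dicer and 0.531 to 0.551 in Ago. Depth limits Krt7 most, with 27 to 36 counts in the Drosha libraries.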
